A study of Mus musculus with 6 samples.

Results

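The genes described here encode the collagens, the laminins and their companions in the matrix of the mouse kidney. They were chosen by symbol: every collagen chain, every laminin alpha, beta or gamma chain, and Nid1, Nid2, Fn1, Hspg2 and Agrn, where a probe set named that gene alone. This gave 57 of the 18193 genes named on the array, measured by 111 probe sets. Each gene was represented by its probe set with the highest mean over the 6 arrays. Of the 57 genes, 11 encode fibrillar collagens, 22 basement membrane proteins, 23 other collagens and 1 fibronectin. The mean over the 6 arrays reached the median level on the chip for 38 of them: 7 fibrillar, 19 basement membrane and 11 other collagen genes, and Fn1.

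Kidney RNA of 6 male mice aged 10 weeks was hybridised, 1 Affymetrix array per animal. The 3 ICD mice were heterozygous for an allele that makes the free cytoplasmic tail of megalin (encoded by Lrp2), the endocytic receptor of the proximal tubule, and 3 littermates were wild type. The labels give neither the strain, nor the promoter that drives the domain, nor the cells that make it. Values are log2 RMA values, on which a difference of 1 is a 2-fold change, and every difference is ICD minus wild type.

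Fibrillar collagens assemble end to end and side by side into the cables of the interstitium, the loose tissue between tubules that fibroblasts and pericytes maintain. Basement membranes are thin sheets under every tubule, capillary and glomerular tuft, in which a network of type IV collagen and a network of laminin trimers are bridged by nidogens and by the heparan sulfate proteoglycans perlecan and agrin. In the mature glomerular filter, podocytes supply the collagen chains encoded by Col4a3, Col4a4 and Col4a5, and mutations in these genes cause Alport syndrome. The type IV genes lie in head-to-head pairs, and Col4a1 and Col4a2 start from a shared promoter. Interstitial collagens are often made together by the same cells.

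The promoter windows of 2 such partnerships are shown because the chains concerned are followed array by array in the results: Col4a1 and Col4a2, which share a promoter, and Col1a2 and Col3a1, which lie on different chromosomes. The sequences are from RefSeq (GRCm38.p6), where 41 of the 57 genes had a window, which runs from before to just past a start site. Capitals mark the motif CCAAT, the GC box with the letters GGGCGG and the TATA box with the letters TATAAA, each searched on both strands, so that some capitals spell the reverse complement of a motif. The windows are chr8:11312777-11313076 (minus strand), chr8:11312555-11312854 (plus strand), chr6:4505368-4505667 (plus strand) and chr1:45311288-45311587 (plus strand).
Col4a1: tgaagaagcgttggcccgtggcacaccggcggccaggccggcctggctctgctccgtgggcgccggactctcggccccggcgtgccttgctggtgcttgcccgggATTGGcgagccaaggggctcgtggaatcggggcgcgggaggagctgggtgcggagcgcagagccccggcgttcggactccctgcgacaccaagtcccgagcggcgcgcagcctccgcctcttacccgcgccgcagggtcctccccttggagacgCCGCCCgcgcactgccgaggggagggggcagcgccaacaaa
Col4a2: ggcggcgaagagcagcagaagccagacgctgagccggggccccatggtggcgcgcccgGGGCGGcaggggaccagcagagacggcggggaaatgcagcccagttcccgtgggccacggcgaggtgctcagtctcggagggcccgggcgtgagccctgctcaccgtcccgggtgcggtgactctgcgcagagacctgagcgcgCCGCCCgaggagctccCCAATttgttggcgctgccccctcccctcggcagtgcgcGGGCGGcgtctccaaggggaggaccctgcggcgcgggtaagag
Col1a2: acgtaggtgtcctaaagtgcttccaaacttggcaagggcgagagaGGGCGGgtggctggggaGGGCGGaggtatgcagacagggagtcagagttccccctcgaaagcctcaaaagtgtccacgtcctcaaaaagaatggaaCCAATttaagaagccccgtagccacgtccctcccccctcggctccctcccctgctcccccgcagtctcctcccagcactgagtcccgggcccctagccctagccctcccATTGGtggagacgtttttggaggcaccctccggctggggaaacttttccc
Col3a1: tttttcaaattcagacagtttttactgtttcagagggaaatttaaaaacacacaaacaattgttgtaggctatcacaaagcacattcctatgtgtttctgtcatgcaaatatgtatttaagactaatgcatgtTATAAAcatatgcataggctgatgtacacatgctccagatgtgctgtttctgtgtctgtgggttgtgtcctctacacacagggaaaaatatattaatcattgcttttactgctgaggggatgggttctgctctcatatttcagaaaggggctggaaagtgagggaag

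The listed start sites of Col4a1 and Col4a2 lay 21 bases apart on opposite strands, and their windows shared 78 bases. The minus strand start of Col4a1 (11312826) lay above the plus strand start of Col4a2 (11312805), so that the transcripts as listed overlap between these sites. Both windows held CCAAT and the GC box, at a GC content of 74% and 73.7%. The only GC box of the Col4a1 window lies in the shared bases and is also a GC box of the Col4a2 window, read from the other strand. The Col1a2 window held CCAAT at 2 places and the GC box at 2 places. The Col3a1 window held TATAAA and neither of the other motifs, at a GC content of 37.7%, the lowest of all member windows. Among all 32851 windows CCAAT was found in 37.4%, the GC box in 35.7% and TATAAA in 13.6%, and the median GC content was 52.7%. The median was 61.3% for the 8 fibrillar windows and 62.3% for the 18 basement membrane windows.

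Before the comparison, 1 array needs mention. Lrp2 had 3 probe sets, and on 1 of them the third wild type animal read 12.13, under the 12.25, 12.37 and 12.26 of the ICD mice, whereas wild type 1 and 2 read 13.01 and 12.97. On the 2 other Lrp2 probe sets the groups overlapped, with differences of 0.0079 and 0.12. On the brighter of these, wild type 2 and 3 both read 12.78. Which Lrp2 sequence the allele adds is not given in the labels, and so the Lrp2 values check the labels only in part. The third wild type array is called the array labelled wild type 3. The value without it is given for fibrillar and basement membrane genes whose direction turned on it, and for some others. Marker lists and matrix machinery genes were not rerun without it. Array medians ran from 6.62 to 6.66, and no probe set of 45037 passed limma's threshold of an adjusted p under 0.05 (2641 at an unadjusted p under 0.05).

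No matrix gene passed the test. Of the 57 genes 0 reached a limma adjusted p under 0.05, where the background over all 18193 genes was 0%, and the smallest adjusted p was 0.721. At an unadjusted limma p under 0.05 there was 1 gene, Col19a1, where 3.94% of all genes reached that level. Counting every probe set, 4 of the 111 of the members did, where 2641 of all 45037 did. The smallest p was on a dimmer probe set of Col12a1, at -0.40 (limma unadjusted p = 0.0117, adjusted p = 0.720). The Col12a1 probe set used here differed by -0.055. The ICD and wild type arrays did not overlap for 4 of the 57 genes (7.02%), against 9.1% of all genes: Agrn was higher in ICD (1 gene, against 3.66% of all genes), and Col19a1, Col20a1 and Col22a1 were lower (3 genes, against 5.44%). More members lay above 0 than below: 37 of 57 had a positive difference, where 43.9% of all genes did. The median difference was 0.043 for the 57 genes and -0.012 for all genes. The 95% confidence interval of a member reached a median of 0.23 to either side, so that small shifts in single genes were not detectable with 3 animals per group. In whole kidney RNA, fewer cells of a type and less RNA per cell cannot be told apart.

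**Figure D1:**
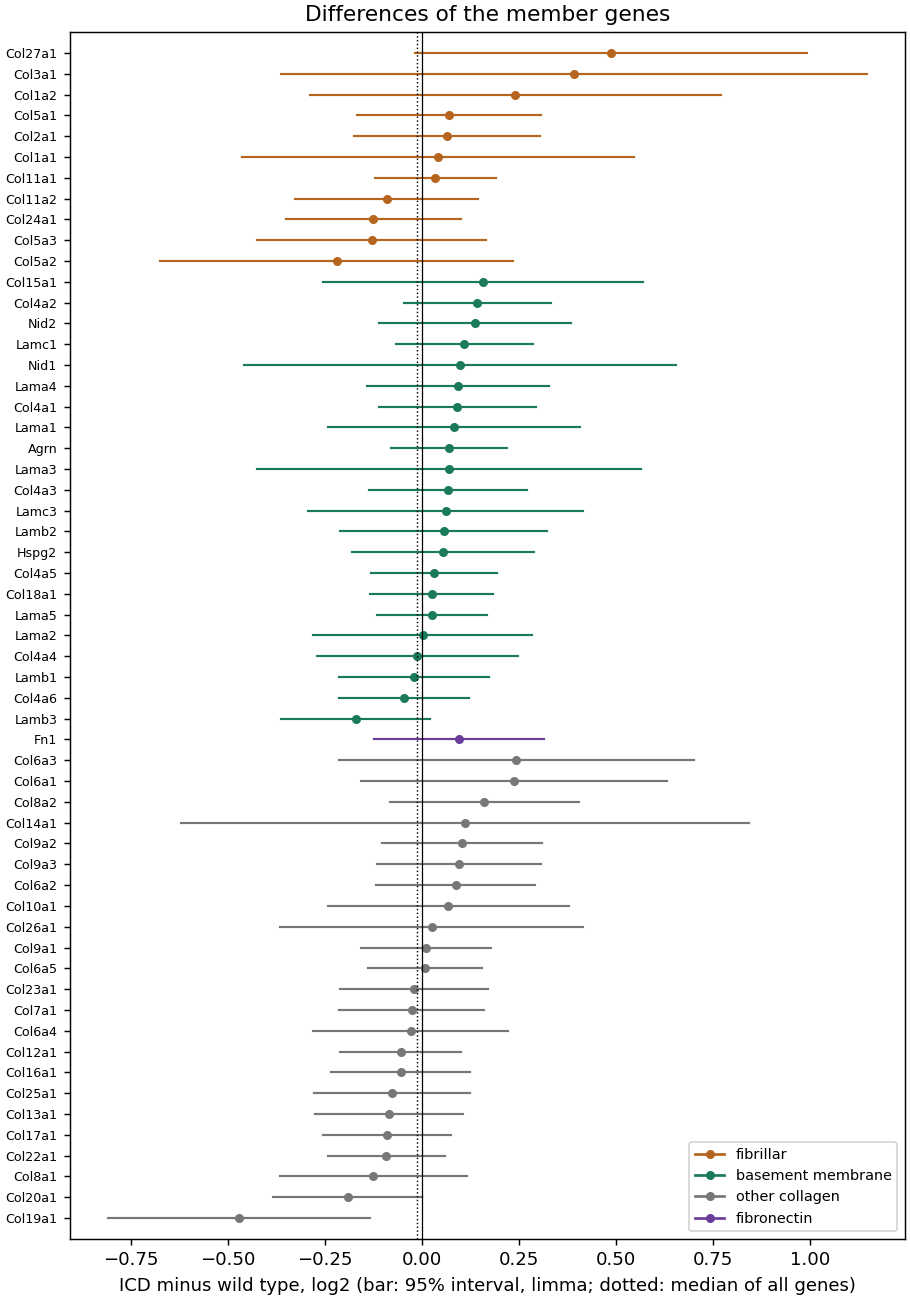
Difference ICD minus wild type (horizontal axis, log2) of each of the 57 genes, by role and in order of size, with its 95% confidence interval from limma (3 arrays per group); the dotted line is the median of all genes at -0.012. The intervals of all genes but Col19a1 span 0, and those of the interstitial collagens Col3a1, Col1a2, Col1a1 and Col14a1 are among the widest.

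Fibrillar collagens showed a small median difference and a wide spread between animals. Of the 11 genes, 7 had a positive and 4 a negative difference, with a median of 0.043 and a range of -0.22 to 0.49. None passed the test, and the groups separated for 0 of them, against 9.1% of all genes. Without the array labelled wild type 3 the median was 0.012, the lowest with any 1 array left out. Col1a1, Col2a1 and Col11a2 changed sign without that array, to -0.071, -0.015 and 0.012.

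Col1a1 and Col1a2 encode the chains of type I collagen, the main fibril of the interstitium. Col1a1 read 8.49, 7.93 and 8.75 on the ICD arrays and 8.72, 8.20 and 8.12 on the wild type arrays, in replicate order. The groups overlapped throughout: ICD 3 and wild type 1 were the highest, and ICD 2 was the lowest. The difference was 0.043 (95% confidence interval -0.46 to 0.55, limma adjusted p = 0.996). Col1a2 read 9.56, 9.44 and 9.91 on the ICD arrays and 9.96, 9.24 and 8.98 on the wild type arrays. Here too wild type 1 and ICD 3 stood on top. Its difference was 0.24 (interval -0.29 to 0.77, limma adjusted p = 0.968), and 0.035 without the array labelled wild type 3.

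Col3a1, the type III collagen that joins type I in thin reticular fibrils, had the widest spread of all members. It read 9.80, 9.50 and 10.37 on the ICD arrays and 10.23, 9.37 and 8.89 on the wild type arrays. The lowest and highest arrays were 2.79-fold apart, and each genotype had both a high and a low animal. The difference was 0.39 (interval -0.36 to 1.15, limma adjusted p = 0.953). Leaving out the array labelled wild type 3 gave 0.087, and leaving out wild type 1 gave 0.76. The other Col3a1 probe set differed by -0.016.

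Col27a1, a fibrillar collagen first known from cartilage, had the largest positive difference of the members. It read 10.24, 9.64 and 9.76 on the ICD arrays and 9.88, 9.17 and 9.13 on the wild type arrays. Wild type 1 lay above ICD 2 and ICD 3, and the other wild type arrays lay below all ICD arrays. The difference was 0.49 ± 0.22 (SE; interval -0.019 to 0.99, limma adjusted p = 0.861), and its second probe set differed by 0.44. It was 0.31 without ICD 1 and 0.73 without wild type 1.

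Col5a1, Col5a2 and Col5a3 encode type V collagen, which sits inside type I fibrils and sets their width. Col5a2 read 9.28, 9.34 and 8.52 on the ICD arrays and 9.37, 9.29 and 9.14 on the wild type arrays. ICD 3 was low and the other 5 arrays lay together, whereas ICD 3 was high for Col1a1, Col1a2 and Col3a1. The second Col5a2 probe set showed the same array low, at 6.11 against 6.77 to 7.02 on the others. Col5a2 is the next gene after Col3a1 on chromosome 1 in the RefSeq table. Its difference was -0.22 (interval -0.67 to 0.24, limma adjusted p = 0.96), and 0.045 without ICD 3. Col5a1 differed by 0.070 (interval -0.17 to 0.31) and Col5a3 by -0.13 (interval -0.42 to 0.17). The other fibrillar genes, Col2a1, Col11a1, Col11a2 and Col24a1, lay below the median level on the chip, and their differences lay between -0.12 and 0.064.

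Basement membrane genes lay slightly higher in ICD kidneys in the median, within the spread between animals. Of the 22 genes, 18 had a positive and 4 a negative difference, with a median of 0.064 and a range of -0.17 to 0.16. None passed the test, and the groups separated for Agrn alone (4.55%, against 9.1% of all genes). Leaving out ICD 3 gave a median of 0.0059, and leaving out wild type 1 gave 0.13. When the array labelled wild type 3 was left out, Col4a4, Col4a5, Lama2, Lamb2 and Nid1 changed sign, to 0.017, -0.0071, -0.064, -0.051 and -0.16.

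Col4a1 and Col4a2 form the type IV collagen found in nearly every basement membrane. Col4a1 read 11.78, 11.62 and 11.76 on the ICD arrays and 11.75, 11.66 and 11.48 on the wild type arrays. The groups overlapped, with the array labelled wild type 3 lowest. The difference was 0.091 (interval -0.11 to 0.29, limma adjusted p = 0.968), and 0.017 without that array. Col4a2 read 10.67, 10.70 and 10.80 on the ICD arrays and 10.70, 10.58 and 10.46 on the wild type arrays. Only wild type 1 reached into the ICD range. Its difference was 0.14 (interval -0.047 to 0.33, limma adjusted p = 0.917), and leaving out the array labelled wild type 3 gave 0.082.

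The type IV chains of the glomerular filter differed little in the mean. Col4a3 read 10.81, 10.90 and 10.90 on the ICD arrays and 10.62, 10.88 and 10.90 on the wild type arrays. Col4a4 read 11.73, 11.70 and 11.67 on the ICD arrays and 11.45, 11.92 and 11.77 on the wild type arrays. Both genes were lowest on wild type 1, an array on which type I and type III collagens were high. The differences were 0.067 (interval -0.14 to 0.27) for Col4a3 and -0.012 (interval -0.27 to 0.25) for Col4a4. Col4a5, the X-linked chain, differed by 0.031 (interval -0.13 to 0.19) and Col4a6, its neighbour expressed in other epithelial membranes, by -0.046 (interval -0.21 to 0.12).

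Laminins are trimers of an alpha, a beta and a gamma chain that bind cell surface integrins and dystroglycan. Of the 10 laminin genes measured, 8 had a positive and 2 a negative difference, with a median of 0.058. Lama5, the alpha chain of the adult glomerular and tubular membrane, read 9.28, 9.30 and 9.32 on the ICD arrays and 9.26, 9.26 and 9.30 on the wild type arrays. The lowest and highest arrays were 1.04-fold apart, and 0.846% of all genes had a smaller within-group SD. Its difference was 0.025 (interval -0.12 to 0.17). Lama3, the alpha chain of epithelial anchoring laminin, read 8.42, 8.83 and 9.32 on the ICD arrays and 9.03, 8.52 and 8.82 on the wild type arrays. ICD mice held both its lowest and its highest value, and its difference was 0.070 (interval -0.42 to 0.56).

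Lamc1, the gamma chain of most kidney laminins, differed by 0.11 (interval -0.066 to 0.28), Lamb2, the beta chain of the glomerular filter, by 0.056 (interval -0.21 to 0.32), and Lamb1, its counterpart in other and fetal membranes, by -0.020 (interval -0.21 to 0.17). Lama1, found in proximal tubule membranes, differed by 0.083 (interval -0.24 to 0.41), and was -0.063 without ICD 2. Lamb3, a partner of Lama3 in anchoring laminin, had the lowest difference of the basement membrane genes, at -0.17 (interval -0.36 to 0.021, limma adjusted p = 0.878). Its level lay below the median on the chip. Lama2, Lama4 and Lamc3 differed by 0.0017, 0.093 and 0.061.

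The linkers of the 2 networks differed from each other in spread. Nid1, the nidogen that ties laminin to type IV collagen, read 8.38, 8.38 and 8.99 on the ICD arrays and 8.90, 8.57 and 7.97 on the wild type arrays. ICD 3 and wild type 1 were again highest, and the array labelled wild type 3 was lowest. The difference was 0.099 (interval -0.46 to 0.66), and -0.16 without that array. Nid2, its relative, differed by 0.14 (interval -0.11 to 0.38). Agrn, agrin, read 10.49, 10.54 and 10.49 on the ICD arrays and 10.45, 10.38 and 10.48 on the wild type arrays. All ICD arrays lay above all wild type arrays, by a small margin. The difference was 0.071 (interval -0.079 to 0.22, limma adjusted p = 0.964). The other Agrn probe set, at a lower level, separated the other way: it differed by -0.16 (limma unadjusted p = 0.0473, adjusted p = 0.846), with all ICD arrays below all wild type arrays. Hspg2, perlecan, differed by 0.055 (interval -0.18 to 0.29).

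Col15a1 and Col18a1 encode collagens that carry glycosaminoglycans at the outer face of basement membranes, the latter being the source of endostatin. Col15a1 read 8.26, 8.07 and 8.64 on the ICD arrays and 8.50, 7.89 and 8.11 on the wild type arrays, again with ICD 3 and wild type 1 on top. Its difference was 0.16 (interval -0.26 to 0.57), and -0.0027 without ICD 3. Col18a1 differed by 0.026 (interval -0.13 to 0.18). Fn1, fibronectin, the glycoprotein on which new matrix is laid down, differed by 0.097 (interval -0.12 to 0.32, limma adjusted p = 0.969). It was 0.015 without ICD 3, and the next Fn1 probe set differed by -0.019.

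**Figure D2:**
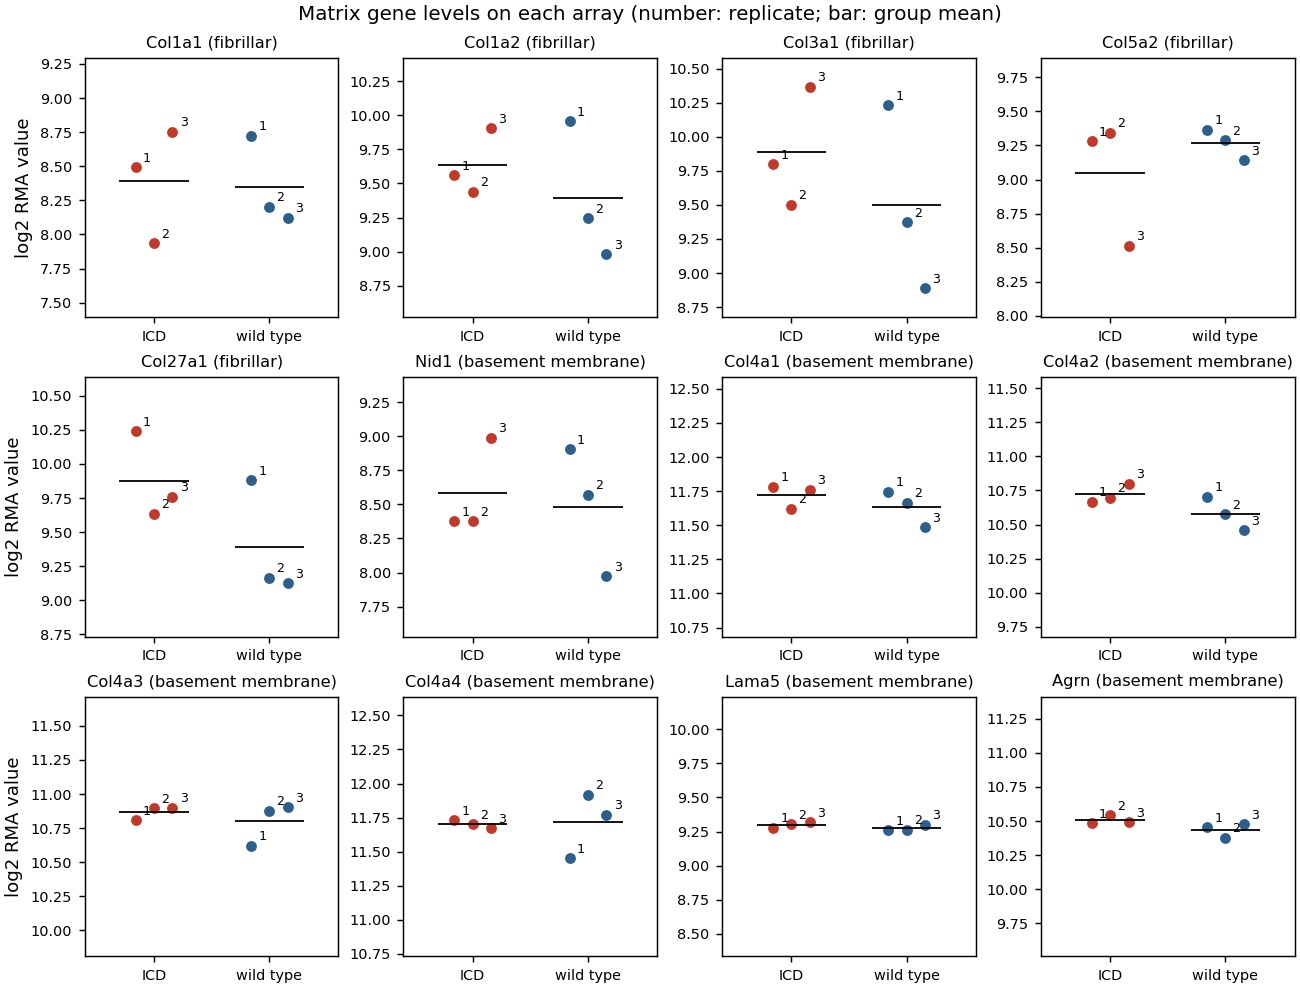
Log2 RMA value (vertical axis, 1.9 units high in every panel, each with its own centre) of 12 member genes on the 3 ICD (red) and 3 wild type (blue) arrays, with the replicate number beside each point and a bar at the group mean. ICD 3 and wild type 1 are on top for Col1a1, Col1a2, Col3a1 and Nid1, whereas Lama5 stays between 9.26 and 9.32.

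The contrast between fibrillar and basement membrane genes was small beside the variation of single arrays. The basement membrane median exceeded the fibrillar median by 0.021. The mean deviation of the 11 fibrillar genes from their own 6-array means was 0.066, -0.076 and 0.11 on the ICD arrays and 0.17, -0.096 and -0.18 on the wild type arrays. For the 22 basement membrane genes it was -0.021, -0.0083 and 0.11 on the ICD arrays and 0.071, -0.068 and -0.080 on the wild type arrays. In both lists ICD 3 and wild type 1 were the highest and wild type 2 and 3 the lowest, with ICD 1 and ICD 2 between them. The contrast was -0.032 without ICD 3, -0.0027 among the brighter probe sets and 0.060 with each gene's probe sets averaged. The fibrillar median was -0.016 with that averaging and -0.0023 with the second brightest probe set, so its direction rests on the probe set used. As these lists were chosen with earlier results known, no test was made of them.

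The roles were also described by the spread between animals of the same genotype. The median within-group SD was 0.20 for fibrillar genes, 0.13 for basement membrane genes, 0.12 for other collagens and 0.098 for all genes. Among genes that reached the median level on the chip it was 0.38 for the 7 fibrillar genes, 0.15 for the 19 basement membrane genes and 0.091 for all genes. The SD of Col3a1, 0.57, exceeded that of 99.5% of all genes, and so did that of Col14a1, 0.56. Nid1 (0.42), Col1a2 (0.40), Col27a1 (0.38), Col1a1 (0.38) and Lama3 (0.37) followed. At the other end stood Lama5 (0.022), Col6a5 (0.039) and Agrn (0.043). Differences in spread were not tested.

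**Figure D3:**
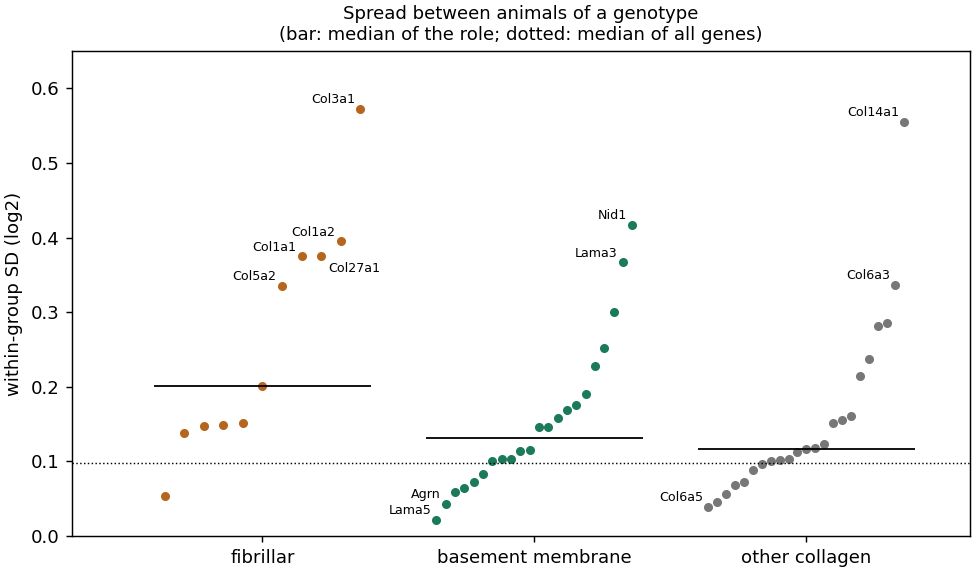
Within-group SD over 3 ICD and 3 wild type arrays (vertical axis, log2) of each fibrillar, basement membrane and other collagen gene, with a bar at the median of each role (0.20, 0.13 and 0.12) and a dotted line at the median of all genes (0.098). Col3a1, Col14a1 and Nid1 have the largest SD in their roles, and Lama5 has the smallest of all members.

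The animals with high interstitial collagen were found in both genotypes. On ICD 3 and wild type 1, picked after their values were seen, 17 of the 57 genes (29.8%) were higher than on all 4 other arrays, against 7.65% of all genes. These were 4 fibrillar genes (Col1a1, Col1a2, Col3a1 and Col5a1), 7 basement membrane genes (Col4a2, Col15a1, Lama2, Lama3, Lamb2, Lamc3 and Nid1), 5 other collagens (Col6a1, Col6a2, Col6a3, Col13a1 and Col14a1) and Fn1. Both arrays were lowest for 3 genes (5.26%, against 9.42% of all genes): Col4a4, Col9a1 and Col10a1.

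Markers of some other kidney cells moved with this pattern. Of 10 endothelial markers, 8 were highest on the same 2 arrays, against 7.65% of all genes. The mean deviation of the endothelial list was -0.052, 0.026 and 0.16 on the ICD arrays and 0.24, -0.070 and -0.31 on the wild type arrays. Of 10 stromal and smooth muscle markers, 4 were (Pdgfra, Pdgfrb, Gucy1a1 and Dpt), whereas Tagln, Myh11 and Cnn1 were highest on wild type 2. The stromal list deviated by 0.14 on wild type 1 and by -0.25 on the array labelled wild type 3. Of 8 proximal tubule markers, 3 were higher on ICD 3 and wild type 1 than elsewhere (Slc34a1, Slc5a2 and Slc22a6), and of 4 myeloid markers 1 was (Ptprc). For podocyte, collecting duct, thick limb and urothelial markers the count was 0. The mean level of the endothelial list ranged from 8.45 to 8.66 in ICD and from 8.19 to 8.74 in wild type kidneys, and that of the stromal list from 8.51 to 8.67 and from 8.29 to 8.69. All 10 endothelial and 8 stromal markers reached the median level on the chip. Adipose markers ran the other way: all 3 measured (Adipoq, Retn and Car3) were lowest on ICD 3 and wild type 1, against 9.42% of all genes. The adipose list deviated by -0.17 and -0.61 on these arrays. The part of these cells in the collagen values was not tested.

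**Figure D4:**
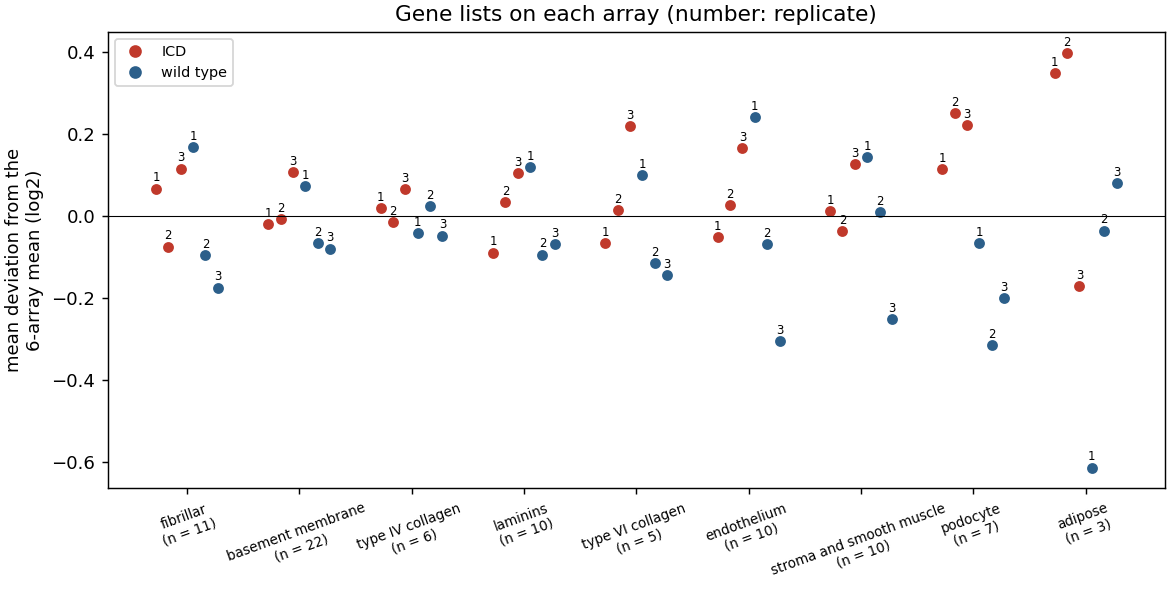
Mean deviation of each gene list from its 6-array mean (vertical axis, log2) on the 3 ICD (red) and 3 wild type (blue) arrays, with the replicate number above each point and the number of genes measured under each list. ICD 3 and wild type 1 are highest for fibrillar, basement membrane, laminin, type VI and endothelial lists and lowest for adipose markers.

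Glomerular chains were also set beside podocyte markers. Of 8 genes of the mature glomerular membrane (Col4a3, Col4a4, Col4a5, Lama5, Lamb2, Lamc1, Agrn and Nid1), 7 had a positive difference, with a median of 0.061. The widespread or fetal chains Col4a1, Col4a2, Lama1 and Lamb1 had a median of 0.087. The podocyte list had 7 of 10 markers measured, all with positive differences, at a median of 0.40. The groups separated for 6 of these 7 podocyte markers (Nphs1, Synpo, Podxl, Wt1, Ptpro and Cdkn1c; 0 passed the limma adjusted p of 0.05), and for 1 of the 8 glomerular chains, Agrn. Over all genes the groups separated for 9.1%, and for 3.66% with ICD higher. The other Agrn probe set separated in the opposite direction. The mean level of the podocyte list ranged from 8.13 to 8.27 in ICD and from 7.70 to 7.95 in wild type kidneys. The part of podocytes in the values of the glomerular chains was not tested.

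Other collagens comprise the beaded filaments of type VI, the fibril-associated and transmembrane types and the short-chain networks. Of 23 genes, 11 had a positive and 12 a negative difference, with a median of -0.020 and a range of -0.47 to 0.24. The type VI chains Col6a1, Col6a2 and Col6a3, which form microfibrils around cells, differed by 0.24, 0.087 and 0.24. These sizes rest on single arrays: leaving out the array labelled wild type 3 gave 0.095 for Col6a1 and 0.055 for Col6a3, and leaving out ICD 3 gave 0.097, 0.014 and 0.074. Col6a3 read 8.20, 8.16 and 8.69 on the ICD arrays and 8.48, 8.11 and 7.73 on the wild type arrays, with the order of animals seen for Col3a1 at the top. Col14a1, a fibril-associated collagen, read 7.70, 7.72 and 8.45 on the ICD arrays and 8.57, 7.67 and 7.29 on the wild type arrays. ICD 3 and wild type 1 again stood apart from the other 4. Its difference was 0.11 (interval -0.62 to 0.84). Leaving out the array labelled wild type 3 gave -0.17, and the next probe set gave -0.11.

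Col19a1, a rare collagen of basement membrane zones, had the lowest difference. It read 6.36, 6.81 and 6.48 on the ICD arrays and 6.91, 6.86 and 7.30 on the wild type arrays. All ICD arrays lay below all wild type arrays, with ICD 2 close to wild type 2. The difference was -0.47 ± 0.15 (SE; interval -0.81 to -0.13, limma unadjusted p = 0.0119, adjusted p = 0.721). The 2 other Col19a1 probe sets differed by 0.048 and -0.13. Col20a1 differed by -0.19 (interval -0.38 to 0.0014) and Col22a1 by -0.092 (interval -0.24 to 0.059). The other Col20a1 probe sets differed by -0.059, 0.050 and 0.014. Those of Col22a1 differed by -0.18 (limma unadjusted p = 0.0416, adjusted p = 0.840) and -0.12. The Col22a1 probe set used here lay below the median level on the chip. Among all 37 members with several probe sets, 17 had at least 1 probe set of opposite sign, so that directions of single genes rest in part on the probe set used.

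Partner genes were followed over the 6 arrays as 10 pairs, among them chains of the same trimer, both nidogens, and Col1a1 with Col3a1 of another collagen type, with exact permutation tests (2-sided). None passed after Benjamini-Hochberg adjustment over the 10 pairs. Col6a1 and Col6a2 varied together most closely (Pearson r = 0.89, exact permutation p = 0.0194, adjusted 0.185; Spearman rho = 0.94, p = 0.0167, adjusted 0.167), and r was 0.98 without ICD 3 and wild type 3, the arrays farthest from the median. Col1a1 and Col3a1 followed (r = 0.85, exact permutation p = 0.0389, adjusted 0.185; rho = 0.83, p = 0.0583, adjusted 0.292; r = 0.97 without ICD 2 and ICD 3). For Col1a1 and Col1a2 r was 0.82 (exact permutation p = 0.0556, adjusted 0.185; rho = 0.77, p = 0.103, adjusted 0.343; r = 0.99 without ICD 2 and ICD 3). With each genotype centred on its mean, r was 0.87, 0.90 and 0.85 for these 3 pairs.

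The pairs of type IV genes that lie head to head came next. The listed promoter windows of Col4a5 and Col4a6 did not overlap. For Col4a1 and Col4a2, whose windows are printed above, r was 0.80 (exact permutation p = 0.0861, adjusted 0.215; rho = 0.54, p = 0.297, adjusted 0.743), 0.70 without ICD 2 and wild type 3, and 0.40 when the latter alone was left out. For Col4a3 and Col4a4 r was 0.77 (exact permutation p = 0.231, adjusted 0.461; rho = 0.31, p = 0.564, adjusted 1). It was -0.82 without ICD 1 and wild type 1 and -0.054 without wild type 1 alone. With the brightest probe sets, r for this pair thus rests on that array. For Col4a5 and Col4a6 r was 0.10 (exact permutation p = 0.836, adjusted 0.929; rho = 0.029, p = 1, adjusted 1; r = 0.54 without ICD 3 and wild type 3). The probe set mattered here: with a gene's probe sets averaged r was 0.88 for Col4a3 and Col4a4 and 0.55 for Col4a5 and Col4a6, and with the second brightest it was 0.98 and 0.51. Single arrays were left out for the brightest probe sets only.

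Of the remaining pairs, Col5a1 and Col5a2 gave r = -0.47 (exact permutation p = 0.569, adjusted 0.813; rho = -0.029, p = 1, adjusted 1). It was 0.46 without ICD 3 and wild type 1 and 0.65 without ICD 3 alone, and so rests on ICD 3. Lamb1 and Lamc1 gave r = 0.40 (exact permutation p = 0.422, adjusted 0.704; rho = 0.086, p = 0.919, adjusted 1; r = -0.40 without wild type 2 and wild type 3). It was -0.55 without the latter alone and 0.77 without wild type 2 alone. Lama5 and Lamb2 gave r = -0.021 (exact permutation p = 0.95, adjusted 0.95; rho = 0.029, p = 1, adjusted 1; r = 0.64 without wild type 1 and wild type 2). It was -0.62 without ICD 3 alone and 0.45 with probe sets averaged. Nid1 and Nid2 gave r = 0.23 (exact permutation p = 0.681, adjusted 0.851; rho = 0.14, p = 0.803, adjusted 1; r = -0.23 without ICD 3 and wild type 3). It was -0.51 without the latter alone and 0.63 with the second brightest probe set. The r of the laminin and nidogen pairs thus changed sign with single arrays.

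The genes that build, hold and degrade this matrix did not pass the test either. Of 51 measured genes (56 listed) 0 reached a limma adjusted p under 0.05, against 0% of all genes. At an unadjusted limma p under 0.05 there were 0, where 3.94% of all genes reached that level. The difference was positive for 27 and negative for 24, where 43.9% of all genes had a positive one. The median was 0.0045, against -0.012 for all genes. The groups separated for 2 of the 51 (3.92%, against 9.1% of all genes), both lower in ICD: Plod1, a lysyl hydroxylase, and Tinagl1, a basement membrane protein. Enzymes and chaperones of collagen assembly were positive for 5 of 16, receptors for 5 of 11, proteases and their inhibitors for 5 of 6, growth factor control genes for 4 of 8, and other matrix genes for 8 of 10.

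Serpinh1, the collagen chaperone HSP47, ranged from 10.30 on the array labelled wild type 3 to 10.88 on ICD 3 and higher still on wild type 1. Its difference was -0.016 (interval -0.41 to 0.38). Sparc, a collagen-binding glycoprotein, differed by 0.26 (interval -0.15 to 0.68), Ccn2, a matricellular factor induced by TGF-beta, by 0.23 (interval -0.13 to 0.60), and Tgfb1 itself by 0.21 (interval -0.18 to 0.61). All 4 of these genes, named after their values were seen, were higher on ICD 3 and wild type 1 than on the other arrays. The same held for 3 of 16 assembly genes, 2 of 11 receptors, 4 of 6 turnover genes and 3 of 8 growth factor control genes. It held for 3 of 10 other matrix genes, and for 7.65% of all genes. Sparc, Ccn2 and Tgfb1 read lowest on the array labelled wild type 3, and their differences were not rerun without it. The integrin subunit Itgb1, shared by the main collagen and laminin receptors, differed by 0.025 (interval -0.15 to 0.20), and Dag1, dystroglycan, by 0.0045 (interval -0.14 to 0.15).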

How the data were processed

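Kidney RNA of 3 ICD and 3 wild type mice was measured, 1 array per animal, with groups and replicate numbers taken from the titles. The authors deposited log2 values (3.11 to 15.11); RMA is named in the submitters' processing notes, and its version, the chip definition and any filter are not given in the sources used here. RMA forces arrays to 1 distribution, so a shift shared by most transcripts would be removed. The scanner files were not used here, and the number of arrays limits the precision.

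The 64 control rows of 45101 were left out. Of 45037 probe sets the platform annotation gave 1 symbol for 34945, several for 932 and none for 9160. Of those with 1 symbol, 34741 were found by Entrez identifier in RefSeq (GRCm38.p6) and 0 symbols were updated.

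The genotype contrast was fitted by limma 3.58.1 under R 4.3.3, with lmFit, eBayes and no covariate (2-sided), adjusted by Benjamini-Hochberg over the 45037 probe sets at a threshold of 0.05, and tested on simulated data, where 44% of changes of 0.5 and 94.7% of changes of 1 were called among 45037 probe sets. The simulated noise followed the variances fitted over all probe sets. These rates therefore need not hold for genes with a wide spread, such as Col3a1 with an SD of 0.57. A design of 3 animals against 3 allows no exact permutation p under 0.1, and single genes got none. Pairs were correlated with scipy 1.17.1. Alternatives were quantile normalization, median centring, a filter on dim probe sets, a trended robust prior, array weights, the replicate block, each array left out, the second brightest probe set and the average of a gene's probe sets.

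Members and lists were chosen with earlier results of these data known. Named were all fibrillar and basement membrane genes, Fn1, the paired chains, members at an unadjusted p under 0.05 and the extremes of the other collagens. Some were chosen after their values were seen: Col6a5, Col12a1, Col14a1, Col20a1, Col22a1, the genes listed for ICD 3 and wild type 1, and the matrix machinery genes named singly.

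Lists of collecting duct, thick limb, proximal tubule, myeloid and urothelial markers were also described: their median differences were -0.11, -0.097, 0.011, 0.11 and -0.19.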

Additional observations from a re-analysis of the deposited data

How the results depend on the processing

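Of the 41 member genes followed singly through the alternatives, 17 kept their direction under every alternative run for them and 24 reversed under at least 1. Not every alternative could reverse a direction. The block, the trended prior and the filter on dim probe sets leave a difference as it was, and the filter dropped some genes. For genes with 1 probe set, averaging and the second brightest probe set repeat the main value. The lowest limma adjusted p of any of them was 0.459. The matrix machinery genes were not rerun under the alternatives. The count of members past the threshold was 0 under all 14 alternatives (1 at an unadjusted limma p under 0.05 in the fit with all arrays). The count of probe sets past the threshold was 0 (2641 at an unadjusted limma p under 0.05), and 1 with a trended and robust prior; leaving out an array gave 0 to 1 (1 without ICD 1, ICD 2 or the array labelled wild type 3). Replicate numbers did not pair the animals: deviations of same-numbered arrays correlated at -0.0057, 0.0077 and -0.047. With the replicate number as a block 0 probe sets and 0 members passed. The fibrillar and basement membrane medians, 0.043 and 0.064, could not change under the block, as each number occurs once in each group. Without each array in turn the fibrillar median ranged from 0.012 to 0.14, the basement membrane median from 0.0059 to 0.13 and their contrast from -0.032 to 0.026. The fibrillar median was -0.016 with a gene's probe sets averaged and -0.0023 with the second brightest. No value of these medians moved by more than the SD between arrays of the list, 0.14 for fibrillar and 0.077 for basement membrane genes. Each SD is larger than its median, so that even a change of sign could stay within it.

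Leaving out each array in turn reversed genes over these ranges: Col1a1 -0.14 to 0.27, Col2a1 -0.019 to 0.14, Col4a3 -0.022 to 0.12, Col4a4 -0.14 to 0.090, Col4a5 -0.0071 to 0.059, Col5a2 -0.37 to 0.045, Col11a1 -0.00010 to 0.075, Col11a2 -0.19 to 0.012, Col15a1 -0.0027 to 0.32, Hspg2 -0.013 to 0.14, Lama1 -0.063 to 0.18, Lama2 -0.071 to 0.14, Lama3 -0.16 to 0.29, Lamb1 -0.095 to 0.049, Lamb2 -0.051 to 0.14, Lamc3 -0.064 to 0.22, Nid1 -0.16 to 0.31, Col14a1 -0.17 to 0.47. With quantile normalization and with each array centred on its median Lama2 reversed to -0.015 and -0.0057. With the second brightest probe set these reversed: Agrn -0.16, Col3a1 -0.016, Col4a4 0.061, Col11a1 -0.15, Fn1 -0.019, Lama4 -0.098, Lamb1 0.040, Lamc3 -0.072, Col14a1 -0.11, Col19a1 0.048. With a gene's probe sets averaged these did: Agrn -0.043, Col4a4 0.011, Col5a1 -0.016, Col11a1 -0.056, Lama4 -0.0025, Lamb1 0.039, Lamc3 -0.0055. The cause was not tested.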
